A study of Saccharomyces cerevisiae with 94 samples.

Results

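The genes described here encode 10 proteins that budding yeast secretes into its cell wall. They were chosen by name from the transcripts annotated as mRNA in the deposited tables: GAS1, EXG1, BGL2 and SCW4 encode enzymes that cut or join glucan chains, CCW12, CCW14, CWP1, CWP2 and SED1 encode mannoproteins that are attached to the wall through a glycolipid anchor, and PRY3 encodes a wall protein of the CAP family, which binds lipids. All 10 were found among 5887 mRNA transcripts and 8159 transcripts of every kind.

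The yeast cell wall is a net of β-glucan chains with some chitin, covered by an outer layer of mannoproteins. Glucan is made at the plasma membrane, and enzymes outside the cell such as Gas1 and Bgl2 lengthen, branch and crosslink it. The wall is remodelled as a bud grows and after stress such as heat, to which cells respond through a kinase cascade that ends in the kinase Slt2 and the transcription factor Rlm1. The messages for wall proteins are translated at the endoplasmic reticulum. In the cytoplasm, the tail of adenosines at the 3′ end of an mRNA, the pA-tail, is shortened by the Pan2-Pan3 and Ccr4-Not complexes before the cap is removed by Dcp2 and the body is degraded by Xrn1.

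The study sequenced native RNA of W303 yeast on Nanopore, a method that reads 1 molecule at a time from its tail and so gives both a count of reads and the tail length of each read. RNA was first enriched by its tail, and the study reports that short tails are detected less efficiently. It adds that this may understate tail shortening after depletion of Dcp2 or Xrn1. Messages with short tails may thus be undercounted. In Mex67-AA cells, rapamycin (1 µg/ml, at 25 °C) draws the tagged export receptor Mex67 out of the nucleus onto a tagged ribosomal protein, so that new mRNAs no longer reach the cytoplasm; the strain also carries the tor1-1 allele and lacks FPR1, which makes its growth insensitive to rapamycin, and its control had the same alleles without time in the drug. In the heat stress chase, wild-type cells grown at 25 °C were shifted to 37 °C. In the thiolutin chase, wild-type cells at 25 °C received 4 µg/ml thiolutin, an inhibitor of transcription. Other columns hold cells in which Dcp2 or Xrn1 was depleted for 2 h through an auxin-inducible degron (AID) with 1 mM 1-NAA and a wild-type control with the same treatment, Pab1-AID cells with auxin for 0, 1 or 2 h, the ccr4, pan2 and pop2 deletion mutants, wild-type RNA digested with Xrn1 in the tube, and Mex67-AA cells with rapamycin for 16 min that were moved to 37 °C shortly after the drug was added. The labels give the strain of all of them as W303. The study's strain list has another background for the ccr4 and pan2 mutants, with a wild type to match it, so a difference in background may lie in these contrasts. The labels give 25 °C for the wild type and the deletion mutants, whereas the study and the title of the wild type give 30 °C. In the study's list the Xrn1-AID and Pab1-AID strains also carry tor1-1 and the FPR1 deletion.

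The columns used for the Mex67-AA chase hold 17 libraries in replicates A, B and C up to 30 min. Those for the heat stress chase hold 18 libraries in replicates A, B and D up to 20 min. For the thiolutin chase they hold 8 libraries of replicate A. The labels also list a later Mex67-AA library of replicate C and a thiolutin replicate B, which were not used here. The last library of a replicate is therefore the last one used. Levels are given as CPM, the reads of a transcript scaled to a common total by all reads of the library without ENO2, an abundant glycolytic mRNA that the study left out because in some libraries its reads came from a synthetic spike-in of other projects. Depth without ENO2 was 188519 to 2184459 reads per library in the Mex67-AA chase, 25838 to 668505 in the heat stress chase and 320726 to 777753 in the thiolutin chase. The 4 min library of heat replicate D was the smallest of all, and the 8 min library of Mex67-AA replicate C had longer tails than its time would place it: the median of the mean tails over transcripts was 31.5 adenosines at 4 min, 32.0 at 8 min and 22.8 at 16 min. Results that change without either library are given with their value. CCR4 had 4.26 CPM in the ccr4 mutant and 31.4 in the wild type, PAN2 0.692 in the pan2 mutant and 33.0 in the wild type, and POP2 2.87 in the pop2 mutant and 59.3 in undigested wild-type RNA. The study calls the replicates of the Mex67-AA chase biological and the labels do not name separate cultures, so p-values measure the spread between these libraries, which may be in part technical. A level is a share of the library: fewer cells and less RNA per cell cannot be told apart, nor can a fall of 1 message from an increase of others.

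Of the 10 messages, 8 had reads in all 57 columns used, and CWP1 and CWP2 were nearly absent. CWP1 had 18 reads over 43 chase libraries and at most 6 in any of them, and CWP2 had 2 reads in all. The deposited interval of these genes stops inside the coding region. On the coordinates of sacCer3, the interval of CWP1 (chromosome XI, plus strand) runs from 260740 to 261587, 264 coding bases short of the stop at 261851, and that of CWP2 from 258812 to 259347, 184 coding bases short of the stop at 259531. The bases on each side of the listed end are shown because a native RNA read starts at the 3′ end of its molecule. They are RefSeq sequence of assembly R64 at chrXI:261558-261617 and chrXI:259318-259377, plus strand, with the coding bases past the listed end in capitals.
CWP1: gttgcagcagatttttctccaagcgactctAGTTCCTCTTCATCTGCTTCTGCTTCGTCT
CWP2: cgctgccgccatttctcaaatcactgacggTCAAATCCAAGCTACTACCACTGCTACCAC
Of 5008 mRNA transcripts matched to a RefSeq gene, 112 (2.24%) end at least 100 bases before the end of their coding region, whereas the intervals of the other 8 messages cover theirs whole. The wild type and ccr4 pools also list reads under systematic names, and under these CWP1 had 367 of its 370 reads and CWP2 144 of its 145 in the wild type. A low value of CWP1 or CWP2 is therefore no measure of expression here, and both are left out of the comparisons.

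The promoters of the 4 messages called in the heat stress chase, described further on, are shown with the letters of known stress motifs in capitals. They are the 250 bases before the listed transcript start, on the strand of the gene, in RefSeq assembly R64, at chrIV:600498-600747 (plus) for SED1, chrVII:1058799-1059048 (minus) for BGL2, chrXII:903406-903655 (plus) for CCW14 and chrXIII:886664-886913 (plus) for GAS1.
SED1: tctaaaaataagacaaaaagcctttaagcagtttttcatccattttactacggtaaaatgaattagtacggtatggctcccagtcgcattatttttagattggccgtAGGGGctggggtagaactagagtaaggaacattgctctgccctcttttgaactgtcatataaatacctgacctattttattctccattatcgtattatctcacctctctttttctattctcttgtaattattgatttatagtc
BGL2: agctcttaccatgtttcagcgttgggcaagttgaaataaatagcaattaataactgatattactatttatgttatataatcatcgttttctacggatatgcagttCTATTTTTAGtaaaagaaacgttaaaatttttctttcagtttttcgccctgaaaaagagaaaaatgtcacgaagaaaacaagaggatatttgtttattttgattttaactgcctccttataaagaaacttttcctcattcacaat
CCW14: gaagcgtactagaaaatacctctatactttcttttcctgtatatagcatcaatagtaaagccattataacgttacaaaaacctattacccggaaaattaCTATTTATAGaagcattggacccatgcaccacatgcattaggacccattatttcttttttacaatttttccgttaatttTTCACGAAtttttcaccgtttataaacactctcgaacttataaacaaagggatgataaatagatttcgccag
GAS1: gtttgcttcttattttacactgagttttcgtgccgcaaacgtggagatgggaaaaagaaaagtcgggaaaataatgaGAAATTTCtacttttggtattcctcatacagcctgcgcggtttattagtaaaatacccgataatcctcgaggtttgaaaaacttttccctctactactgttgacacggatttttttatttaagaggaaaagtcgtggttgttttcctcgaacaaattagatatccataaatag
AGGGG, the stress response element read by Msn2 and Msn4, stood once before SED1, at 2 places before CWP1 on the other strand and before none of the other 8. It was searched on both strands, and 18.9% of 5883 promoters of the same length hold it. An Rlm1-type core, CTA and TAG with 4 free bases between them and the same on both strands, stood before BGL2 and CCW14, against 4.49% of promoters. GAANNTTC and TTCNNGAA, each a pair of the units that the heat shock factor Hsf1 reads, stood before GAS1 and CCW14 respectively, against 10.2% and 11.6% of promoters. No motif overlapped another in these windows, and a match describes letters and shows no binding.

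The mean pA-tails of the members differed in an order that was much alike in both sets of controls. In the 3 Mex67-AA controls the mean tail was 48.2 ± 4.03 adenosines (SD, n = 3) for SCW4, which encodes a glucanase of the wall, and 33.9 ± 2.97 (SD, n = 3) for CCW12, the message of an abundant structural mannoprotein. In the 3 heat stress controls these means were 48.1 ± 0.0998 and 34.2 ± 0.428 (SD, n = 3). PRY3, SED1, BGL2, GAS1, EXG1 and CCW14 lay in between. Neighbours in that order overlapped in the Mex67-AA controls, and in the heat stress controls all did but BGL2 with GAS1 and EXG1 with CCW12. Of 42 chase libraries with at least 10 reads for each of 7 messages (all but PRY3), SCW4 had the longest mean tail in 26 and CCW12 the shortest in 33.

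The Mex67-AA chase asks how the messages already in the cytoplasm decay once export stops. EXG1, which encodes the major exo-β-1,3-glucanase, lost most of its share. It was at 675 CPM in the control of replicate A and at 65.1 CPM at 30 min, at 631 and 195 CPM (20 min) in replicate B, and at 376 and 55.6 CPM (30 min) in replicate C. In each replicate the last library was the lowest, and the groups of controls and last libraries did not overlap. The fitted slope was −1.19 ± 0.0708 (SE) on the log2 scale per 10 min (edgeR quasi-likelihood test on 17 libraries with replicate as a term, adjusted p = 9.42e-11 over 4261 transcripts). Its half-life, the mean over replicates of constants from pairs of libraries, was 8.36 ± 0.775 min (SD, n = 3), from 38 of 40 pairs that showed a decrease.

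GAS1, the message of a β-1,3-glucanosyltransferase that lengthens glucan chains, fell more slowly. It went from 1723 to 656 CPM in replicate A, from 1565 to 991 CPM in replicate B and from 1137 to 379 CPM in replicate C between the control and the last library, which was the lowest of its replicate each time. The slope was −0.53 ± 0.0579 (SE) log2 per 10 min (edgeR, adjusted p = 1.16e-07). Its half-life was 18.8, 26.1 and 12.2 min in replicates A, B and C, with 36 of 40 pairs showing a decrease.

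PRY3 had a low level, lost most of it early and then held or regained some. Replicate A had 112 CPM in the control, 53.0 at 8 min, 31.9 at 12 min, 22.1 at 14 min, 24.5 at 16 min and 58.3 at 30 min. Replicate B had 97.4 CPM in the control, 108 at 4 min, 39.5 at 10 min, 27.7 at 12 min, 25.3 at 14 min and 39.8 at 20 min. Replicate C had 87.6 CPM in the control, 110 at 4 min, 22.8 at 8 min, 41.3 at 16 min and 33.6 at 30 min. The last library was thus above the lowest one in each replicate, and every library from 8 min on was below all 3 controls. Over all libraries the slope was −0.56 ± 0.179 (SE) log2 per 10 min (edgeR, adjusted p = 0.00769), without replicate B it was not called (adjusted p = 0.0705), and up to 16 min the slope was −1.84 (adjusted p = 1.61e-11). The half-life from the falling pairs was 5.75 ± 0.206 min (SD, n = 3), but only 28 of 40 pairs showed a decrease, and with the increases kept it was 10.5 min.

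SCW4 took the opposite course. Its share went from 335 CPM in the control to 869 CPM at 30 min in replicate A, from 615 to 955 CPM at 20 min in replicate B and from 239 to 572 CPM at 30 min in replicate C. The last library was above the control in each replicate, although the groups overlapped through the control of B. The slope was 0.44 ± 0.0944 (SE) log2 per 10 min (edgeR, adjusted p = 2.61e-04), which placed SCW4 above 98.3% of transcripts. As the reads are shares, such a slope does not show that the number of SCW4 molecules in a cell grew.

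For the other 4 messages, all of mannoproteins but for the glucanosyltransferase BGL2, no change of share was called: the slopes were 0.09 for SED1, 0.03 for BGL2, −0.01 for CCW14 and −0.07 for CCW12, with standard errors of 0.0603 to 0.0848 log2 per 10 min. CCW12 held between 10939 and 21493 CPM in the 17 libraries. Some of these calls turned on a replicate or on the window: SED1 rose without replicate C (0.13, adjusted p = 0.00951), and CCW12 fell without replicate B (−0.19, adjusted p = 0.0423) and rose up to 16 min (0.25, adjusted p = 0.00332). Only 11 to 16 of 40 pairs showed a decrease for these 4 messages, so that a half-life from falling pairs alone has little meaning for them. In all, 1 of 8 members rose and 3 fell, beside 5.52% and 75.6% of all transcripts tested. The members' median slope was −0.04 and that of all transcripts −0.70, and 7 of the 8 members, EXG1 being the other, lay above the latter.

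**Figure D1:**
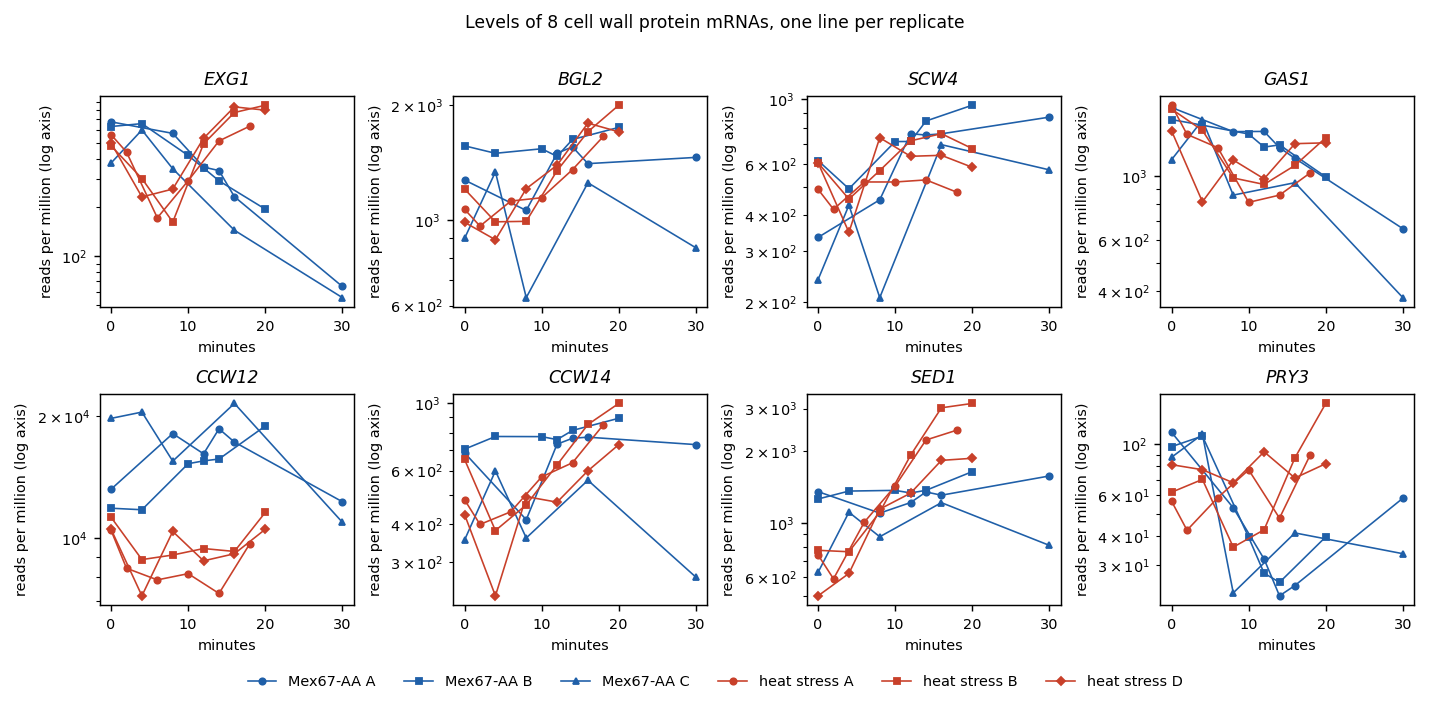
Level in CPM (log axis) against minutes for 8 cell wall protein mRNAs in the Mex67-AA chase (blue, replicates A, B and C) and the heat stress chase (red, replicates A, B and D), with 1 point per library and 1 line per replicate. EXG1 falls to 55.6 to 195 CPM in the last Mex67-AA libraries, and under heat it is at its lowest at 4 to 8 min and returns to 635 to 855 CPM.

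Scaling by TMM, which takes most transcripts as unchanged, moved the median slope of all transcripts from −0.70 to −0.17 in the Mex67-AA chase, from 0.45 to 0.12 in the heat stress chase and from 1.55 to 0.32 in their difference. The share of rising transcripts among those called went from 6.8% to 38.6%, from 74.0% to 52.7% and from 88.2% to 57.0%. All member slopes moved with it. In the Mex67-AA chase, EXG1 still fell with TMM (−0.65, adjusted p = 3.75e-06) and SCW4 still rose (0.99), whereas GAS1 (0.01) and PRY3 (−0.02) were no longer called and SED1, BGL2, CCW14 and CCW12 rose by 0.62, 0.57, 0.53 and 0.48. Under DESeq2 with its own size factors the same 6 members were called in the same directions. Relative to the median of all transcripts, EXG1 was 0.48 lower and SCW4 1.15 higher per 10 min on the original scale.

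Mean tails of most members shortened up to 16 min, and later values went both ways. In replicate A the mean tail of CCW12 was 36.5 adenosines in the control, 29.7 at 8 min, 26.4 at 16 min and 23.4 at 30 min, and that of BGL2, an endo-β-1,3-glucanase that also transfers glucan chains, was 43.5, 33.8, 31.5 and 29.3 adenosines. For GAS1 the control and 30 min means were 41.5 and 50.2 in replicate A and 36.8 and 45.1 in C. Those of EXG1 were 40.1 and 47.0 in replicate A and 31.1 and 43.4 in C. In replicate B both messages were shorter at 20 min than in the control (32.6 against 39.2 for GAS1, 32.3 against 37.1 for EXG1). Up to 16 min the mean tail shortened, with slopes of −7.58 ± 1.69 (SE) adenosines per 10 min for BGL2, −7.34 ± 1.53 for GAS1, −6.59 ± 1.11 for CCW12, −6.44 ± 1.31 for CCW14 and −6.39 ± 1.94 for SCW4 (limma on 14 libraries with replicate as a term, largest adjusted p = 0.00595). SED1 (−3.62 ± 1.79, adjusted p = 0.0663) and EXG1 (−4.30 ± 2.63, adjusted p = 0.131) were not called. Both were called where the median tail replaced the mean (−5.86 and −12.2 adenosines per 10 min), where values were weighted by reads (−5.34 and −10.0), and without replicate C (−5.36 and −10.6), and SED1 also without the 8 min library of replicate C (adjusted p = 0.0287). SCW4 was not called without replicate A or B (adjusted p = 0.153 and 0.137). PRY3 had under 10 reads in 1 library of replicate A and could not be fitted, but without that replicate its tail lengthened by 17.6 adenosines per 10 min (limma, adjusted p = 0.00392). In that fit the 8 min and 16 min values of replicate C rest on 10 reads each, so the call is a weak one. Of the 7 members fitted on all replicates, 5 shortened and none lengthened, beside 91.0% and 0.747% of the 1071 transcripts tested, and the members' median slope (−6.44) lay close to that of all transcripts (−6.65).

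**Figure D2:**
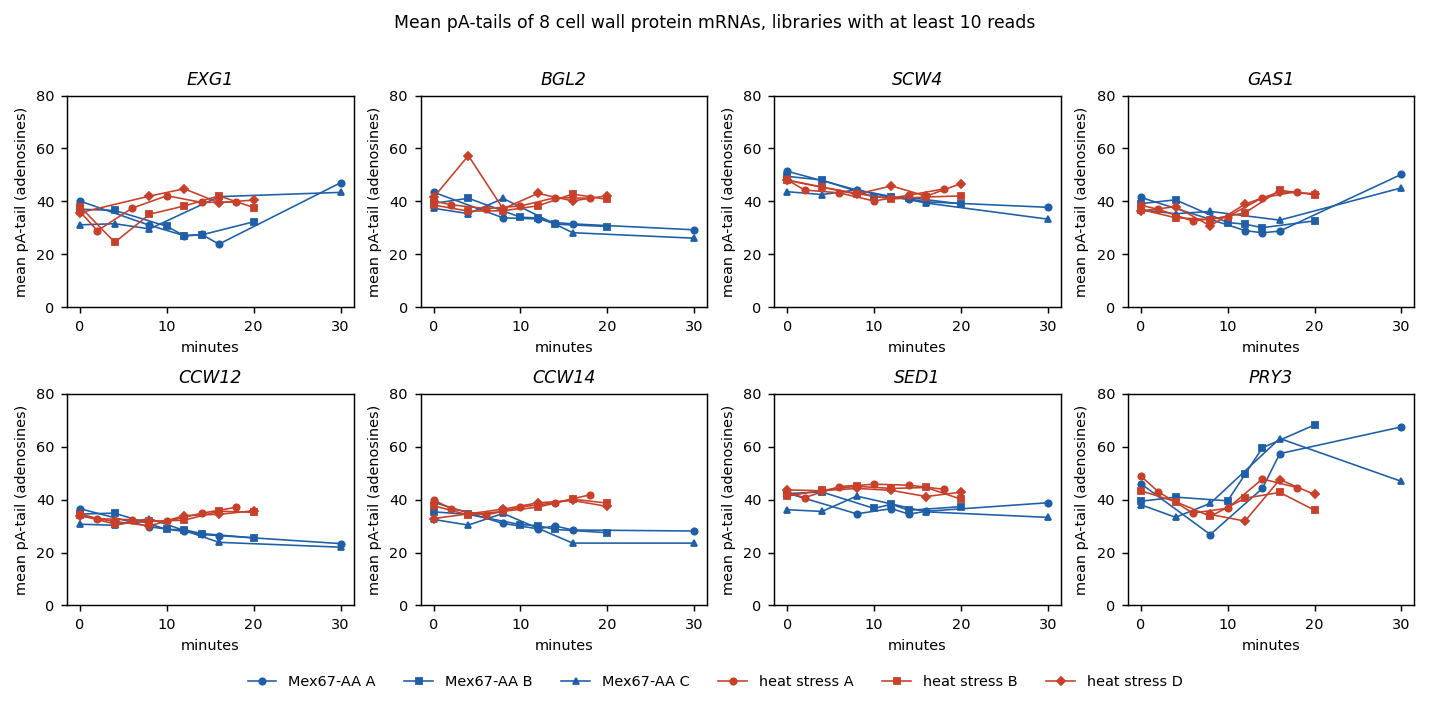
Mean pA-tail in adenosines against minutes for the same 8 mRNAs in the Mex67-AA chase (blue) and the heat stress chase (red), in libraries with at least 10 reads, with 1 line per replicate. CCW12 goes from 36.5 to 23.4 adenosines in Mex67-AA replicate A and stays between 30.1 and 37.1 under heat, and PRY3 is at 67.5 adenosines in the last Mex67-AA library of replicate A.

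The mean did not show how the spread of tails changed. In replicate A, the median tail of GAS1 went from 39 adenosines in the control to 24 at 16 min and 27 at 30 min, while its 95th percentile went from 72 to 74.2 and 114. Replicate B showed a median of 36 in the control and 23 at 20 min, with 95th percentiles of 70 and 98, and replicate C medians of 34 and 24 (30 min), with 95th percentiles of 68 and 114. So the middle of the GAS1 tails became shorter while the longest 5% became longer, in every replicate. SED1 had the same pattern, with medians of 40 and 30 and 95th percentiles of 73 and 94 in the first and last libraries of replicate B.

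For PRY3 the middle moved as well. Its median tail was 46 adenosines in the control of replicate A, 21 at 8 min, 56.5 at 16 min and 69 at 30 min. In replicate B it was 41 in the control, 26 at 12 min and 70.5 at 20 min, on 43 to 58 reads in the libraries of 12 min and later. Replicate C had medians of 34, 30, 31.5, 65.5 and 44 adenosines at 0, 4, 8, 16 and 30 min. In replicates A and B the last library thus had the longest tails and in replicate C the 16 min library, and the value at 8 min in replicate A and those at 8 and 16 min in replicate C rest on 10 reads each. EXG1 followed with a 95th percentile of 70 in the control and 95 at 30 min in replicate A, and of 64 and 90.2 in replicate C. CCW12 and BGL2 had no such tails: the 95th percentile of CCW12 went from 67 to 50 and that of BGL2 from 75 to 57 in replicate A, and that of SCW4 from 81.6 to 63 in replicate B.

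Of the 8 messages, the 95th percentile was higher in the last library than in the control in 5, 4 and 4 messages in replicates A, B and C. Over all transcripts with at least 10 reads in both libraries this share was 57.6%, 41.4% and 56.8%, so that the members as a group did not stand apart from it. A higher 95th percentile with a lower median was seen in 28.6%, 29.4% and 28.1% of transcripts. The study ascribes long tails late in this chase to a few new nuclear mRNAs with overlong tails. It left its late libraries out of deadenylation modelling for that reason. GAS1 is among the single messages whose tails the study plots, in a figure that marks late long tails as a sign of this. Whether the study's account holds for the 8 messages was not tested here. The level and the spread of tails are given side by side here, and whether they are linked was not tested.

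**Figure D3:**
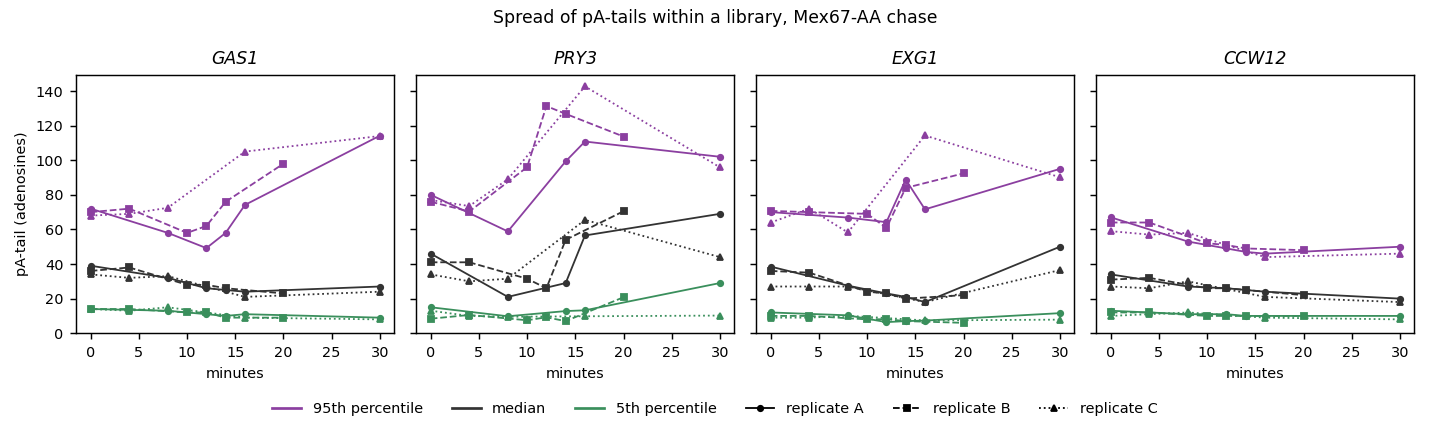
The 5th percentile (green), the median (black) and the 95th percentile (purple) of the pA-tails of GAS1, PRY3, EXG1 and CCW12 against minutes in the Mex67-AA chase, with solid lines for replicate A, dashed lines for B and dotted lines for C. The 95th percentile of GAS1 ends at 98 to 114 adenosines while its median ends at 23 to 27, and the 95th percentile of CCW12 ends at 46 to 50, below its controls.

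The heat stress chase asks how the same messages respond when cells with intact export are shifted to 37 °C. SED1, which encodes an abundant anchored mannoprotein that helps cells withstand stress, was the only member called with an increase whatever the scaling. Replicate A had 739 CPM at 0 min, 588 at 2 min, 1012 at 6 min, 1430 at 10 min, 2221 at 14 min and 2441 at 18 min. Replicate B had 773 CPM at 0 min, 762 at 4 min, 1113 at 8 min, 1919 at 12 min, 3024 at 16 min and 3152 at 20 min. Replicate D had 500, 619, 1146, 1336, 1828 and 1865 CPM at 0, 4, 8, 12, 16 and 20 min. From 6 min on, every library was above every control. The slope up to 16 min was 1.26 ± 0.104 (SE) log2 per 10 min, or 2.39-fold (edgeR on 15 libraries, adjusted p = 1.06e-07 over 3899 transcripts, and 0.96 with TMM, adjusted p = 3.81e-06).

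EXG1 dipped and came back. In replicate A it was at 562 CPM at 0 min, 440 at 2 min, 173 at 6 min, 292 at 10 min, 515 at 14 min and 635 at 18 min. In replicate B it was at 480, 302, 163, 494, 770 and 855 CPM at 0, 4, 8, 12, 16 and 20 min, and in replicate D at 500, 232, 260, 534, 835 and 797 CPM at the same times. The lowest library came at 4 to 8 min in each replicate and its value was below all controls, and the last library was above its own control in all 3. In replicate D that lowest value rests on 6 reads, so its place at 4 min is uncertain. Its counting interval of 85.2 to 505 CPM overlaps that of its control (362 to 673 CPM). The 8 min value of replicate D, on 107 reads, has an interval of 213 to 314 CPM, below that of the control. A straight line up to 16 min had a slope of 0.33 ± 0.258 (SE) that was not called (edgeR, adjusted p = 0.263), whereas up to 8 min EXG1 fell by 1.9 log2 per 10 min (adjusted p = 2.10e-05). Its mean tail was 36.1 adenosines at 0 min, 28.9 at 2 min, 37.5 at 6 min and 42.1 at 10 min in replicate A, and 38, 24.5, 35.1 and 38.3 at 0, 4, 8 and 12 min in replicate B. In replicates A and B the shortest tails thus came 1 library before the lowest level, and at the lowest level the tails were again near the control, while replicate D had 6 reads at 4 min and no tail value there.

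GAS1 also dipped. Its level was 1755 CPM at 0 min, 1391 at 2 min, 1251 at 6 min, 809 at 10 min, 857 at 14 min and 1024 at 18 min in replicate A, and 1701, 1436, 983, 933, 1086 and 1354 CPM at 0, 4, 8, 12, 16 and 20 min in replicate B. Replicate D went from 1430 CPM to 813 at 4 min and 1300 at 20 min. All later libraries of replicates A and B were below the controls of both, and the last ones were above the lowest of their replicate. The slope was −0.41 ± 0.13 (SE) log2 per 10 min (edgeR, adjusted p = 0.0114); it was not called without replicate A (−0.26, adjusted p = 0.175), without replicate B (−0.37, adjusted p = 0.0951) or with the libraries of 18 and 20 min included (−0.21, adjusted p = 0.0953).

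BGL2 and CCW14 rose by 0.40 ± 0.0959 and 0.37 ± 0.134 (SE) log2 per 10 min (edgeR, adjusted p = 0.00158 and 0.0247). BGL2 went from 1068 to 1654 CPM, from 1206 to 1994 CPM and from 988 to 1700 CPM between the first and last libraries of replicates A, B and D. CCW14, a mannoprotein of the inner wall layer, went from 481 to 850 CPM, from 653 to 999 CPM and from 430 to 731 CPM. The last library of BGL2 was above all 3 controls in each replicate. Neither call held with TMM (0.11 and 0.07), and that of CCW14 was lost when any replicate was left out (adjusted p = 0.0534 to 0.118).

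No slope was called for CCW12 (−0.14 ± 0.0782), SCW4 (0.22 ± 0.116) or PRY3 (0.08 ± 0.184). CCW12 went from 10443 to 7297 CPM at 14 min and 9681 CPM at 18 min in replicate A and from 11251 to 8846 CPM at 4 min and 11563 CPM at 20 min in replicate B. It was called as falling without the 4 min library of replicate D (−0.18, adjusted p = 0.0215) and with TMM (−0.43, adjusted p = 0.00454). SCW4 and PRY3 had negative slopes with TMM (−0.08 and −0.25), neither of them called. In all, 3 members rose and 1 fell of 8, beside 47.6% and 16.7% of all transcripts.

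Under heat the mean tail of GAS1 shortened and then lengthened, a course that a straight line over the window describes poorly. That of CCW12 varied less. CCW12 had mean tails of 34.6, 34.1 and 33.8 adenosines at 0 min in replicates A, B and D and 37.1, 35.2 and 35.8 in their last libraries. GAS1 went from 38.5 to 32.6 at 6 min and 43.7 at 18 min in replicate A, from 36.9 to 33.1 at 8 min and 42.5 at 20 min in replicate B, and from 36.4 to 30.7 at 8 min and 43.0 at 20 min in replicate D. Each replicate of GAS1 thus had its shortest tail at 6 to 8 min and ended above its control. Slopes up to 16 min could be fitted for 4 members because of the 25838 reads of the 4 min library of replicate D, and none of the 4 was called: 3.16 for GAS1, 1.10 for SED1, 0.72 for CCW12 and −0.37 for BGL2 adenosines per 10 min (limma, adjusted p = 0.183 to 0.912). No member had an unadjusted p under 0.05, against 154 of 358 transcripts, of which 6.15% lengthened and 24.9% shortened after adjustment. With all libraries up to 20 min the tail of GAS1 lengthened by 4.0 adenosines per 10 min (adjusted p = 0.0382), as did 44 of 357 transcripts while 8 shortened, around a median of 1.01. Without the 4 min library of replicate D the tail of SCW4 shortened (−3.86, adjusted p = 0.040).

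**Figure D4:**
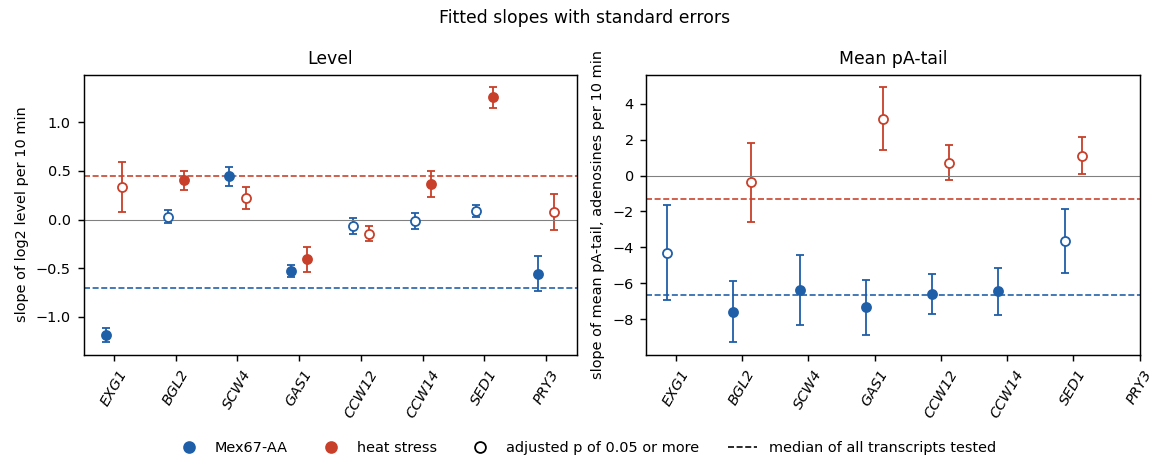
Fitted slopes of the log2 level (left) and the mean pA-tail (right) per 10 min with standard errors, for the Mex67-AA chase (blue) and the heat stress chase up to 16 min (red). Filled points have an adjusted p under 0.05, and dashed lines are the medians of all transcripts tested, −0.70 and 0.45 log2 for levels. EXG1 has the lowest blue level slope (−1.19) and SED1 the highest red one (1.26).

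The difference between the chases was tested in 1 fit of all libraries up to 16 min. Strain, drug and temperature all differ between them and cannot be told apart. PRY3 was higher under heat by 1.86 ± 0.281 (SE), EXG1 by 1.47 ± 0.334 and SED1 by 1.09 ± 0.153 log2 per 10 min, and CCW12 (−0.39 ± 0.120) and SCW4 (−0.57 ± 0.200) were lower (edgeR, largest adjusted p = 0.00983). These are 3 and 2 of 8 members, beside 72.5% and 9.71% of 4612 transcripts. The heat line of EXG1 spans both its dip and its return. Up to 8 min its heat slope was −1.90, below its Mex67-AA slope of −1.09 up to 16 min. No difference was tested for the shorter window, so the value above does not show that EXG1 fell less at first under heat. With TMM, PRY3 stayed higher (0.63, adjusted p = 0.042) and CCW12 and SCW4 lower (−1.54 and −1.74), but EXG1 (0.28) was not called, SED1 turned to −0.08, and GAS1, CCW14 and BGL2, not called on the original scale, were lower (−1.22, −1.01 and −0.90). The call of SCW4 was lost without Mex67-AA replicate A (adjusted p = 0.0756), and that of CCW12 without Mex67-AA replicate B (adjusted p = 0.0519) and without replicate as a term (adjusted p = 0.0646).

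For tails, all 4 members that could be fitted differed: the slope under heat was above that in Mex67-AA cells by 10.5 ± 2.40 adenosines per 10 min for GAS1, 7.31 ± 1.42 for CCW12, 7.21 ± 2.94 for BGL2 and 4.72 ± 1.83 for SED1 (limma, largest adjusted p = 0.0452), beside 46.2% of 351 transcripts with a higher and 1.14% with a lower slope. Without the 4 min library of heat replicate D, 7 members could be fitted, and CCW14 (8.60) and EXG1 (9.26) were called as well while SCW4 (2.53, adjusted p = 0.233) was not. BGL2 and SED1 lost the call when single replicates were left out, with adjusted p up to 0.207 and 0.205, and BGL2 also with the control at 0 min (6.03, adjusted p = 0.0757), whereas GAS1 and CCW12 kept it in these fits.

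Thiolutin was sampled once in the columns used, so its values have no error over replicates. Counting intervals cover counting error only. SED1 was at 2313 CPM at 0 min, 3360 at 20 min, 5275 at 30 min and 7542 at 60 min, and CCW14 at 708, 923, 1242 and 1662 CPM. These were 3.26-fold and 2.35-fold higher at 60 min than at 0 min, as were 22.9% of all transcripts by more than 2-fold. In the other direction, GAS1 went from 2294 to 1500, 440 and 221 CPM, on 71 reads at 60 min, and CCW12 from 17531 to 19451, 12613 and 5051 CPM; both were more than 2-fold lower at 60 min, like 25.7% of transcripts. EXG1 had its lowest value at 12 min (275 CPM), against 657 at 0 min and 627 at 60 min. The direction of SED1 is that of the heat stress chase and that of EXG1 is a dip as there, but in other cells and over other times, and no comparison was made. ENO2 took 4.34% of the reads at 8 min and 24.5% to 39.7% in the other libraries, which marks the 8 min library as unlike the rest.

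Columns of the other strains are pools of replicates, except that the pop2 mutant, undigested wild-type RNA and Xrn1-digested RNA are single libraries. A member was counted as different where it was past 2-fold. When the deadenylases of the Ccr4-Not complex were missing, several wall messages took a larger share. In the ccr4 mutant, SED1 was at 3881 CPM (95% Clopper-Pearson interval 3802 to 3962) against 702 (680 to 725) in the wild type, a 5.53-fold difference. PRY3 (2.34-fold), BGL2 (2.30-fold), EXG1 (2.09-fold) and CCW14 (2.04-fold) were also past 2-fold. This made 5 of 8 members, beside 6.00% of all transcripts past 2-fold higher and 5.70% lower, and GAS1 (1.04-fold) and SCW4 (1.10-fold) hardly differed. With TMM 3 members stayed past 2-fold (SED1, PRY3 and BGL2). With entries under gene names alone CCW12 (log2 ratio 1.08, against 0.81) was past 2-fold too, which made 6.

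In the pop2 mutant, which lacks another deadenylase of that complex, SED1 was at 9419 CPM (9101 to 9745) against 955 (902 to 1010) in undigested wild-type RNA, a 9.86-fold difference. EXG1 was at 1970 against 488 CPM, CCW14 at 1239 against 468 CPM, PRY3 at 169 against 66.5 CPM and BGL2 at 2272 against 969 CPM. On this scale these are the same 5 messages as in the ccr4 mutant, and the controls of both contrasts are different libraries of wild-type cells. The background was 29.0% of transcripts past 2-fold higher and 1.85% lower, with a median log2 ratio of 0.616. How many of all transcripts were past 2-fold in both mutants was not counted. With TMM SED1 and EXG1 alone stayed past 2-fold in the pop2 mutant, so that SED1 was the only member past it in both. GAS1 (0.875-fold) and SCW4 (1.15-fold) again were near the control.

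In the pan2 mutant, which lacks the catalytic subunit of the other deadenylase, no member was past 2-fold, beside 1.12% of transcripts higher and 14.8% lower, and SED1 was at 519 CPM against 702 in the wild type. All 8 tails were longer there, by 2.72 to 12.8 adenosines, as were 85.4% of all tails. SCW4 had a mean tail of 62.5 adenosines against 49.8 in the wild type, and GAS1 one of 52.6 against 41.8. In the ccr4 mutant 7 of 8 mean tails were longer, by up to 6.63 adenosines, beside 92.2% of all. There the short end of the tails was shifted: the 5th percentile of GAS1 was 24 adenosines in the ccr4 mutant, 19 in the pan2 mutant and 15 in the wild type, and that of SED1 was 26, 17 and 16. The 95th percentile of GAS1 was 75, 91 and 74 and that of SED1 was 77, 91 and 82 in the same order. So the pan2 column differed from the wild type mainly at the long end and the ccr4 column at the short end, for both messages. No share over all transcripts is given for these percentiles, so the pattern is not shown to be particular to GAS1 and SED1. In the pop2 mutant 7 of 8 tails were longer, beside 78.3% of all. SED1 was the member with a shorter tail there (40.9 against 46.0 adenosines), and SCW4 and PRY3 were longer by 8.6 and 8.65.

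Pab1 is the protein that coats pA-tails. With auxin for 1 h and 2 h, Pab1-AID cells had longer mean tails for all 8 messages, by 4.93 to 14.6 and by 9.15 to 17.3 adenosines, as did 95.7% and 95.1% of all transcripts. EXG1 went from 32.9 adenosines without auxin to 47.4 at 1 h and 50.2 at 2 h, and SCW4 from 49.6 to 59.9 and 64.2. No member was past 2-fold in level, beside 0.924% of transcripts higher and 2.99% lower at 1 h and 2.01% and 8.43% at 2 h. The 2 values furthest apart at 2 h were CCW12, at 40049 against 23568 CPM, and EXG1, at 418 against 724 CPM.

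Depletion of Dcp2 gave shorter mean tails for all 8 messages, with differences of −4.25 to −1.05 adenosines, against a median of −5.62 over all transcripts, of which 10.8% were longer. No member was past 2-fold in level, while 20.6% of transcripts were higher and 2.37% lower. With Xrn1 depleted, CCW14 (378 against 876 CPM), BGL2 (788 against 1812 CPM) and SCW4 (199 against 425 CPM) were more than 2-fold lower and none higher, beside 9.10% and 13.5% of transcripts, and SED1 (1254 against 2446 CPM) lay just inside that limit and past it with TMM (log2 ratio −1.07). The mean tail was longer in 5 of 8 members in these cells, beside 26.0% of transcripts, with a median difference of 0.564 adenosines for the members and −2.83 for all. In the tube, digestion of wild-type RNA with Xrn1, which degrades RNA without a cap, left no member past 2-fold, beside 1.67% of transcripts higher and 5.54% lower. The mean tails differed by −3.73 to 0.791 adenosines and were longer in 3 of 8 members, beside 51.1% of all transcripts.

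Mex67-AA cells with 16 min of rapamycin, moved to 37 °C shortly after its addition, had both the export block and heat. EXG1 was at 60.6 CPM (51.3 to 71.2) against 660 (633 to 688) in cells at 25 °C without rapamycin, 10.9-fold lower, and PRY3 was 2.79-fold lower, beside 64.5% of transcripts past 2-fold lower. SCW4 was 3.07-fold higher, at 1317 against 430 CPM, as were 2.75% of transcripts. SED1 was at 1773 against 1324 CPM. The mean tail was shorter in 7 of 8 messages, with differences from −18.0 (BGL2) to −7.77 (EXG1) adenosines, and longer by 6.10 in PRY3. Of 3683 transcripts 24.4% had a longer mean tail, and the median difference was −10.4 adenosines. The control of this pair holds the same reads as the controls of chase replicates A and B, and so it is no separate sample. With TMM 5 members were past 2-fold: SCW4, SED1, BGL2 and CCW14 were higher (log2 ratios 2.93, 1.74, 1.21 and 1.03) and EXG1 lower (−2.13), while PRY3 (−0.17) was not.

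**Figure D5:**
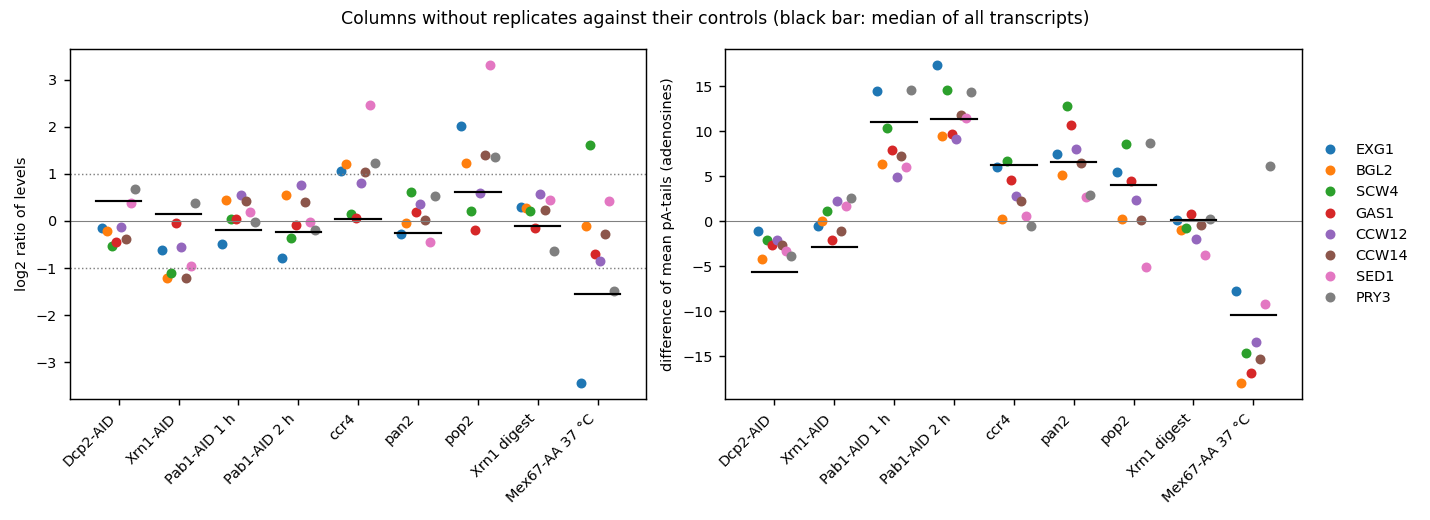
Log2 ratio of levels (left) and difference of mean pA-tails in adenosines (right) of 8 mRNAs between each column without replicates and its control, with 1 coloured point per gene, dotted lines at 2-fold and a black bar at the median of all transcripts. SED1 is the highest point in ccr4 (5.53-fold) and pop2 (9.86-fold), and all 8 tail differences are above 0 in pan2 and in Pab1-AID.

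Other genes of the wall were described in the same way, beside the 5.52% of all transcripts that rose and 75.6% that fell in the Mex67-AA chase (median −0.70) and the 47.6% and 16.7% in the heat stress chase (median 0.45). Of 19 further genes for glucan and chitin remodelling, 14 could be tested in the Mex67-AA chase, where 1 rose and 4 fell, with a median slope of −0.18. ACF2, an endo-β-1,3-glucanase, fell by 1.47 ± 0.301 (SE) and SUN4, a protein of cell separation, by 1.06 ± 0.105 log2 per 10 min, and SCW11, a relative of SCW4, rose by 0.32 ± 0.119 (edgeR, adjusted p = 0.0199). Under heat 5 of 12 rose, led by EXG2 (1.09 ± 0.197), a relative of EXG1, and DSE4 (0.94 ± 0.175), a glucanase of daughter cells, and none fell.

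Of 29 other mannoproteins, 17 could be tested in both chases. In Mex67-AA cells 3 rose and 4 fell, with a median slope of 0.01: PIR3 (0.90 ± 0.142), which is linked directly to glucan, and TIR1 (0.40 ± 0.157), a protein of cold and low oxygen, rose, and PST1 (−0.62 ± 0.143) and HSP150 (−0.45 ± 0.141), another Pir protein, fell (edgeR). With TMM the falls of PST1 (−0.09) and HSP150 (0.07) were not called. Under heat 10 rose and 2 fell, with a median of 1.07, against 0.45 over all transcripts. SPI1 (3.59 ± 0.712), a relative of SED1, and PIR3 (3.02 ± 0.317) rose most, and PLB2 (−1.49 ± 0.256), a phospholipase, and TOS1 (−0.26 ± 0.101) fell (edgeR, adjusted p = 9.10e-05 and 0.0308).

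Of 17 genes for glucan and chitin synthesis, 11 were tested in Mex67-AA cells, and all 11 fell (median −1.17), beside 75.6% of all transcripts, with CHS7 (−1.77 ± 0.186), an export factor of chitin synthase, and KRE6 (−1.59 ± 0.145), of β-1,6-glucan synthesis, furthest down. Under heat 10 of 12 rose (median 0.59), beside 47.6% of all, with ROT2 (0.99 ± 0.140), a glucosidase of the endoplasmic reticulum, and CHS6 (0.97 ± 0.382) highest, the latter not called with TMM (0.62). Of 15 signalling genes tested, 10 fell and 1 rose in Mex67-AA cells: the kinase gene SLT2 (−1.79 ± 0.117) and the phosphatase gene PTP3 (−1.70 ± 0.385) fell most, and MTL1 (0.86 ± 0.275), for a sensor, rose. Under heat 10 of 14 rose, with PTP2 (1.62 ± 0.249), a phosphatase of Slt2 and Hog1, and ROM1 (1.37 ± 0.439), an exchange factor for Rho1, highest, and ROM1 was not called with TMM (1.01, adjusted p = 0.0678). The median slope of the signalling genes in the export block was −0.86, and no test compared the lists.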

How the data were processed

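The authors basecalled Nanopore direct RNA reads with Guppy, aligned them to a custom yeast transcriptome with minimap2 2.17 (the processing notes name sacCer3 as the build), filtered alignments with SAMtools 1.9 and called tails with Nanopolish. The authors deposited read counts per transcript and, as scores in adenosines, the mean, the median and percentiles of the pA-tail. Of 1320 value columns in the tables, 342 were used, which hold 46 libraries with a sample of their own and 11 pools, and 978 were not used. No pair of libraries held identical values.

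ENO2 was left out of totals. Slopes of the log2 level on minutes were fitted to the deposited counts with edgeR 4.0.16 (quasi-likelihood, replicate as a term, at least 10 reads in 3 libraries, the Mex67-AA control at 2.67 min, the onset of the export block), and slopes of the mean tail with limma 3.58.1 (at least 10 reads in every library), in R 4.3.3. P-values are two-sided and Benjamini-Hochberg adjusted over all transcripts, with a threshold of 0.05. The difference of slopes came from 1 fit of both chases up to 16 min. Half-lives came from pairs of libraries of a replicate, leaving out pairs with an increase. Columns without replicates were compared as ratios of CPM with 0.5 reads added, for transcripts with at least 20 reads in both columns together. Fits were tested on simulated data. Alternatives were TMM, DESeq2 1.42.0, no filter, no replicate term, ENO2 kept, other windows, other tail summaries and each replicate left out. Leaving out the 4 min library of heat replicate D or the 8 min library of Mex67-AA replicate C, and using entries under gene names alone, were chosen after seeing the data.

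The members and the gene lists were chosen with earlier results of these data known. All 10 members are named, and of each other list, for each chase, up to 2 transcripts with the largest fall and up to 2 with the largest rise among those called. Replicate letters mark separate time courses and pair nothing between the chases. Intervals (95%, Clopper-Pearson) cover counting error only. Sequences and gene positions are from RefSeq assembly R64.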

Additional observations from a re-analysis of the deposited data

Results flagged for a closer look

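For 5 messages the slope of the level differed between the heat stress and Mex67-AA chases in a fit that tested the difference itself (edgeR, adjusted over all transcripts). Per 10 min on the log2 scale, heat minus Mex67-AA, the difference was 1.86 for PRY3, 1.47 for EXG1, 1.09 for SED1, −0.39 for CCW12 and −0.57 for SCW4. Of 4612 transcripts, 72.5% were called higher under heat and 9.71% lower. The median difference over all of them was 1.55, and EXG1 and SED1 lay below it. With TMM it was 0.63 for PRY3, −1.54 for CCW12 and −1.74 for SCW4, and those of EXG1 (0.28) and SED1 (−0.08) were not called.

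For 4 messages the slope of the mean pA-tail differed in the same way (limma). The difference was 10.5 adenosines per 10 min for GAS1, 7.31 for CCW12, 7.21 for BGL2 and 4.72 for SED1. Of 351 transcripts, 46.2% were called higher under heat and 1.14% lower, around a median difference of 4.23. Strain, drug and temperature differ between the chases and cannot be told apart.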

How the results depend on the processing

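Slopes of levels are log2 per 10 min and slopes of tails adenosines per 10 min. In the Mex67-AA chase, levels with a changed sign were GAS1 0.0090 (TMM) and 0.021 (DESeq2), PRY3 0.032 (DESeq2), CCW12 0.48 (TMM), 0.49 (DESeq2) and 0.25 (up to 16 min), and CCW14 0.53 (TMM), 0.54 (DESeq2), 0.0014 (ENO2 kept) and 0.17 (up to 16 min). With each replicate left out, CCW12 ranged from −0.19 to 0.089, CCW14 from −0.096 to 0.12 and BGL2 from −0.013 to 0.098. Under heat they were EXG1 −1.90, PRY3 −0.42 and CCW14 −0.22 up to 8 min, CCW12 0.0052 up to 20 min, PRY3 −0.25 and −0.23 and SCW4 −0.076 and −0.091 with TMM and DESeq2. The difference of the chases became −1.01 and −0.66 for CCW14 and −0.90 and −0.57 for BGL2 with TMM and DESeq2, −0.082 for SED1 with TMM, and for GAS1 it ranged from −0.25 to 0.075 with each replicate left out. The heat tail slope of BGL2 became 1.73 (median tail), 1.68 (weighted), 0.10 (up to 20 min) and 1.17 (without the 4 min library of replicate D), and ranged from −1.98 to 1.75 with each replicate left out.

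Without the replicate block, CCW14 had a slope of 0.0051 in the Mex67-AA chase, the call of CCW12 in the difference of the chases was lost (−0.31, adjusted p = 0.0646), and no other call of a member changed.

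Called heat levels numbered 2509 of 3899 tested, and 1229 of 3400 up to 8 min. They ran from 1601 of 3348 to 2443 of 3826 with a replicate left out. Without the 4 min library of replicate D they were 2519 of 3899. Members called numbered 4, and 2 to 3 up to 8 min or with a replicate left out. Without that library 3 members rose and 2 fell, as CCW12 was then called. Mex67-AA tails called numbered 983 of 1071 tested, and 389 of 400 with at least 50 reads. Heat tails called numbered 111 of 358 tested, 176 of 358 with the median tail and 172 of 358 weighted. They were 52 of 357 up to 20 min and 135 of 872 without that library. With a replicate left out they were 0 of 358 without A or B and 122 of 2001 without D. At the 0 without replicate A or B, 73 and 92 transcripts had an unadjusted p under 0.05 in limma, the one tool run on tails. Members called there were 0, and 1 up to 20 min or without the 4 min library. Called differences of tails numbered 166 of 351 tested, 23 of 124 with at least 50 reads and 522 of 762 without that library. With a replicate left out they ran from 122 of 352 (without Mex67-AA replicate A) to 705 of 990 (without heat replicate D). Members with a called difference of tails numbered 4, 1 with at least 50 reads and 2 to 6 with a replicate left out. The half-life of GAS1 went from 19.0 to 27.5 min with increases kept, that of EXG1 from 8.36 to 11.55 min and, from pairs with the control, 11.58 min, and that of PRY3 from 5.75 to 10.48, 6.36 (control at 0 min) and 6.25 min (pairs with the control). With TMM the members past 2-fold numbered 1 in Dcp2-AID, 4 in Xrn1-AID, 3 in ccr4, 2 in pop2 and 5 in Mex67-AA cells at 37 °C. By the median tail, the members' median difference was 1.25 in Xrn1-AID and −1.0 for digested RNA. The causes were not tested. Calls for PRY3 and for heat tails are limited by few reads.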
